A study of Mus musculus with 16 samples.

Results

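The genes described here are *Trp53*, which encodes the transcription factor p53, and 9 genes that p53 is known to switch on or that take part in its response to DNA damage: *Cdkn1a*, *Mdm2*, *Bbc3*, *Bax*, *Pmaip1*, *Ccng1*, *Fas*, *Gadd45a* and *Aen*. They were chosen by symbol, and these 10 of the 48397 gene symbols were found in each of the 16 count tables. All 10 passed the filter on low counts, which left 17038 genes for testing. The counts come from RNA sequencing of primary hippocampal neurons of newborn wild type CD1 mice, whose own mouse *Apoe* gene was intact, in 4 groups of 4 cultures. The control group received 10-fold concentrated medium conditioned by immortalized Apoe-/- astrocytes, which make no apolipoprotein E. The apoE2, apoE3 and apoE4 groups received medium of the same kind from astrocytic lines homozygous for the human *APOE* ε2, ε3 or ε4 allele in place of the mouse gene, so each isoform came as the lipoproteins of 1 such line, and other differences between the lines cannot be told apart from the isoform. Medium was added at 10 and again at 13 days in vitro and RNA was taken at 17 days in vitro. Cultures of all 4 groups, the control included, had earlier been given cytosine arabinoside (AraC), a nucleoside analog that is built into DNA and kills dividing cells. No library without AraC is analysed here, so what the drug itself did to these genes was not measured.

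p53 is kept low in unstressed cells because Mdm2, a ubiquitin ligase whose own gene p53 activates, marks it for degradation. After DNA damage the protein is stabilized mainly by modification, without a need for more *Trp53* RNA, and it raises transcription of genes that stop the cell cycle (*Cdkn1a*, *Gadd45a*), of genes that permeabilize mitochondria (*Bax*, *Bbc3*, *Pmaip1*), of the death receptor *Fas*, and of regulators such as *Ccng1* and the nuclease *Aen*. Neurons no longer divide, and in them the p53 pathway is known chiefly for its part in cell death. The comparisons asked whether RNA of these genes differed between cultures with and without human apoE, and between the isoforms.

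p53 binds as a tetramer to a pair of 10-base half-sites. The 300 bases from 250 before to 50 after the annotated starts were read from RefSeq on GRCm38.p6 and searched for the published p53 half-site consensus, which reads the same on both strands. A window was found for 9 of the 10 genes, *Pmaip1* being the one without. The consensus was found in 7 of the 9, namely *Trp53*, *Cdkn1a*, *Mdm2*, *Bax*, *Ccng1*, *Gadd45a* and *Aen*, and counted by window in 8 of their 13, against 8.36% of all 32851 windows. The 2 windows of *Aen* overlap and hold the same match, which is counted in both. The match in *Trp53*, *Mdm2*, *Bax*, *Ccng1*, *Gadd45a* and *Aen* is shown with 10 bases on each side, in the direction of transcription, so that the half-sites can be compared, and the capitals mark the half-site.
Trp53: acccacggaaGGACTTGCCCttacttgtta
Mdm2: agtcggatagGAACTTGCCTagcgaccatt
Bax: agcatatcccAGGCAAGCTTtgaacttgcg
Ccng1: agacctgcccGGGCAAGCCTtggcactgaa
Gadd45a: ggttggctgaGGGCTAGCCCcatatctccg
Aen: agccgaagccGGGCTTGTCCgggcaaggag
These 6 stretches lie at chr11:69580274-69580303 (plus strand), chr10:117710925-117710954 (minus strand), chr7:45467080-45467109 (minus strand), chr11:40755452-40755481 (minus strand), chr6:67037428-67037457 (minus strand) and chr7:78895927-78895956 (plus strand). *Cdkn1a* was the only one of the genes with 2 half-sites within 13 bases of each other, as found in 0.0731% of all windows. These 2 matches are shown as overlapping stretches, with 1 half-site in capitals in each, since a spacer of 12 bases separates them. The search marked exact matches only. The 10 lower-case bases that end the second stretch miss the consensus only at their first base and so were not marked. Which of these half-sites p53 pairs on was not tested.
Cdkn1a, first half-site: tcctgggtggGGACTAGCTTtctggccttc
Cdkn1a, second half-site: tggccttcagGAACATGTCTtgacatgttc
These lie at chr17:29090896-29090925 and chr17:29090918-29090947 on the plus strand. The first half-site starts 73 bases before the annotated start at 29090979. The window of the other annotated start of *Cdkn1a*, at 29093769, held no half-site.
The windows of *Bbc3* and *Fas* did not contain these letters, which says only that they are not in these 300 bases. A match describes the sequence and is not a site shown to be bound.

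Each library held between 14087723 and 34248172 counts on genes, and reads that HTSeq gave to no single gene made up 38.4 to 73.7% of a library. *Lars2*, which overlaps a repeat of ribosomal origin, accounted for 0.359 to 15.02% of the gene counts. The counts behind the 10 genes ran from 18 for *Fas* to 7709 for *Ccng1*, so that *Fas* and *Gadd45a* carry the largest counting error. Values are CPM (counts scaled to a common library size) after TMM scaling, which corrects for a few features that take a large share of a library. Summed over 8 neuron markers the libraries stood at 2607 to 6571 CPM, and over 8 astrocyte markers at 1309 to 6581 CPM. In 3 libraries, apoE3 replicate 1, apoE3 replicate 4 and apoE4 replicate 4, the astrocyte sum was above the neuron sum. Such sums of RNA do not count cells and do not show which cell type was more numerous. The study counted GFAP-labelled astrocytes by staining at 17 days in vitro. It describes them as a contamination of the neuronal cultures without significant variation between treatments.

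Per kilobase of exon, *Ccng1* was the most abundant of the 10 genes in control cultures, at 47.1 ± 11.9 CPM per kb (SD, n = 4). *Bax* (13.0 ± 1.58) and *Mdm2* (12.3 ± 2.06) followed and did not differ from each other beyond their spread. *Bbc3* (7.77 ± 3.47), *Aen* (7.65 ± 2.12) and *Cdkn1a* (6.98 ± 2.65) came next and lay within the spread of one another, below the means of *Bax* and *Mdm2*. *Trp53* (3.11 ± 0.897), *Pmaip1* (2.99 ± 1.14), *Fas* (2.09 ± 1.44) and *Gadd45a* (1.37 ± 0.669) were lowest, each within the spread of its neighbour. *Mdm2* RNA was thus more abundant per length than *Trp53* RNA.

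The 10 genes shared 1 pattern in all 4 groups, which was chosen for description after the values were seen and is given without a test. In the control, apoE2, apoE3 and apoE4 cultures alike, replicates 1 and 4 both stood above replicates 2 and 3, for 10 of 10 genes. The same order in all 4 groups was found in 14.5% of all tested genes. *Trp53*, the regulator itself, stood at 15.3, 9.58, 9.32 and 16.1 CPM in control replicates 1 to 4. It stood at 15.8, 10.2, 11.6 and 15.6 CPM with apoE2, at 20.95, 9.80, 11.3 and 23.6 CPM with apoE3, and at 18.0, 9.58, 11.6 and 19.0 CPM with apoE4. Replicates 1 and 4 were the high ones in each group, and the ranges of the groups overlapped. *Trp53* lies on chromosome 11 from 69580359 to 69591873 on the plus strand of mm10.

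**Figure D1:**
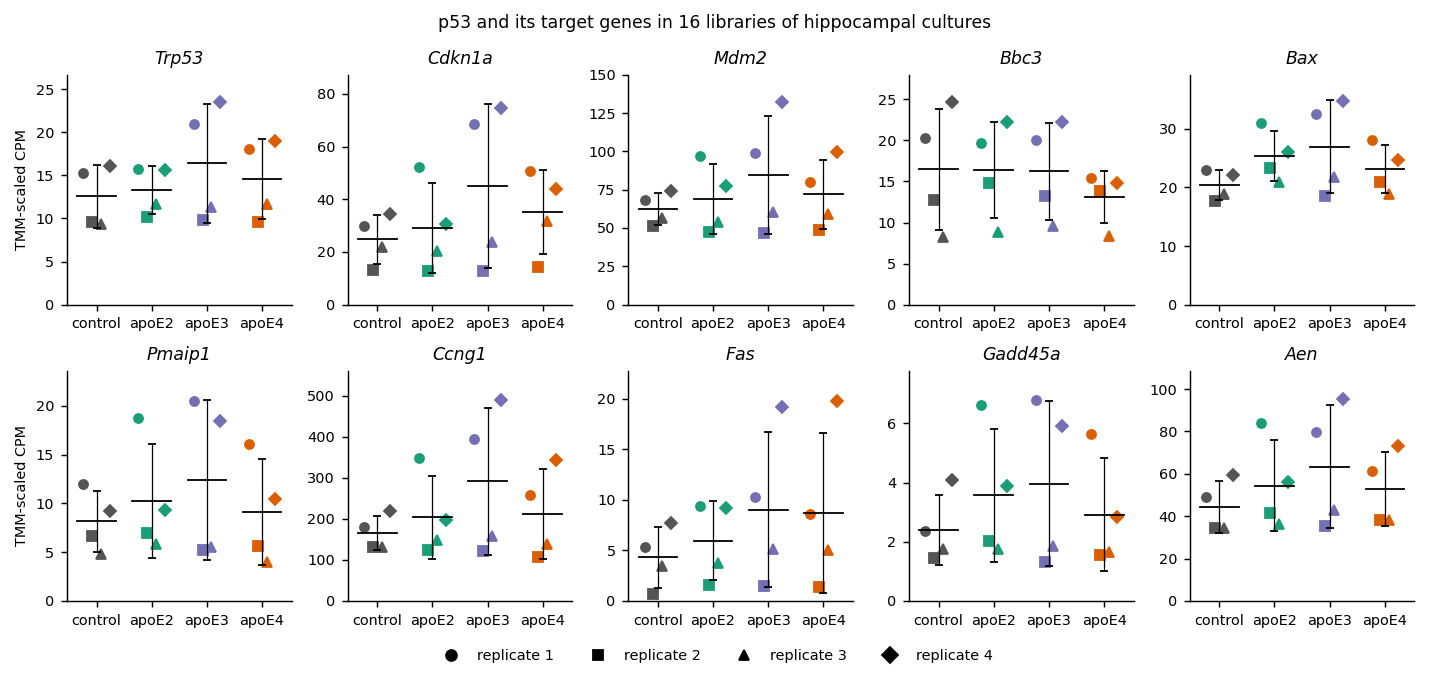
Normalized level (TMM-scaled CPM, vertical axis) of the 10 genes in each library, by group on the horizontal axis. Symbols mark replicate numbers 1 to 4, the horizontal bar is the group mean and the vertical bar its SD (n = 4). In every panel and every group the circles and diamonds of replicates 1 and 4 sit above the squares and triangles of replicates 2 and 3, and the range as a fold is widest for *Fas*, from 0.724 to 19.7 CPM.

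*Cdkn1a* encodes p21, the inhibitor of cyclin-dependent kinases through which p53 stops the cell cycle, and lies on chromosome 17 from 29090976 to 29100727 on the plus strand. Its 4 control cultures held 29.8, 13.1, 21.7 and 34.5 CPM. With apoE2 they held 52.3, 12.6, 20.4 and 30.7 CPM, with apoE3 68.5, 12.9, 23.8 and 74.8 CPM, and with apoE4 50.8, 14.3, 31.6 and 43.8 CPM. The apoE3 group thus held both the libraries with the most p21 RNA and a library as low as any control. *Ccng1*, which encodes cyclin G1, a regulator of the p53 and Mdm2 loop, lies on chromosome 11 from 40748552 to 40755311 on the minus strand. It stood at 180.2, 132, 132 and 218 CPM in the control and at 393, 123, 159 and 489.6 CPM with apoE3. With apoE2 it stood at 349, 124, 147 and 196 CPM, and with apoE4 at 258, 107, 139.8 and 343 CPM. Replicate 2 of *Ccng1* was no higher in any apoE group than in the control, and the high values were those of replicates 1 and 4.

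*Fas* encodes the death receptor that recruits caspase-8 and lies on chromosome 19 from 34290666 to 34327772 on the plus strand. It was the most variable of the 10 genes, with a 27.3-fold range over the 16 libraries. The control cultures held 5.32, 0.724, 3.42 and 7.75 CPM, and the apoE2 cultures 9.37, 1.57, 3.79 and 9.18 CPM. The apoE3 cultures held 10.3, 1.48, 5.14 and 19.2 CPM, and the apoE4 cultures 8.61, 1.37, 5.04 and 19.7 CPM. Every apoE library was higher than the control library of its own replicate number, although the ranges of the groups overlapped widely. *Bax*, the effector that opens the outer mitochondrial membrane, lies on chromosome 7 from 45461697 to 45466898 on the minus strand and was the steadiest of the 10, with a 1.96-fold range. It stood at 22.9, 17.7, 18.9 and 22.2 CPM in the control, at 30.9, 23.3, 20.99 and 26.1 CPM with apoE2, at 32.6, 18.6, 21.8 and 34.7 CPM with apoE3 and at 28.1, 20.98, 18.9 and 24.7 CPM with apoE4. As for *Fas*, each of these apoE libraries lay above its control of the same number, by as little as 0.0037 on the log2 scale in apoE4 replicate 3.

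*Bbc3* encodes Puma, a BH3-only protein that frees Bax and Bak, and lies on chromosome 7 from 16308393 to 16318205 on the plus strand. It stood at 20.3, 12.7, 8.27 and 24.7 CPM in the control, at 19.7, 14.9, 8.85 and 22.2 CPM with apoE2, at 20.03, 13.2, 9.56 and 22.2 CPM with apoE3 and at 15.4, 13.8, 8.41 and 14.9 CPM with apoE4. Alone among the 10 genes its mean was not above the control in any apoE group, and the lowest mean was that with apoE4. *Aen*, which encodes a p53-induced nuclease (chromosome 7, 78895854 to 78911209, plus strand), held 34.4 to 59.6 CPM in the control, 36.1 to 83.9 CPM with apoE2, 35.4 to 95.5 CPM with apoE3 and 38.2 to 73.0 CPM with apoE4. *Mdm2* (chromosome 10, 117688875 to 117710758, minus strand) held 51.2 to 73.9 CPM in the control, 47.3 to 97.3 CPM with apoE2, 46.9 to 132 CPM with apoE3 and 48.5 to 99.6 CPM with apoE4. *Pmaip1*, which encodes the BH3-only protein Noxa, ranged from 4.04 to 20.5 CPM over all libraries. *Gadd45a*, the growth arrest and DNA damage gene on chromosome 6 (67035096 to 67037457, minus strand), ranged from 1.31 to 6.78 CPM. For both, the highest library was apoE3 replicate 1.

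The exons of 3 of the genes overlap another annotated gene. For *Bax*, 12.2% of exon bases overlap *Gm45808* on the same strand. For *Cdkn1a*, 7.68% overlap *AC167363.2* and for *Gadd45a*, 19.1% overlap *E230016M11Rik*, both on the other strand. Whether the counting used the strand is not given in the sources used here, so reads in these stretches cannot be assigned with certainty.

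Most of the variance of the 10 genes lay between replicate numbers. Of the sum of squares of log2 CPM over the 16 libraries, 62.3% (*Bax*) to 89.3% (*Fas*) lay between replicate numbers, with a median of 80.1%, against a median of 56.1% over all tested genes. Between the treatment groups lay 4.92% (*Pmaip1*) to 22.5% (*Bax*), against a median of 14.4% over all tested genes. *Bax* was thus the gene with the largest part of its variance between treatments.

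**Figure D2:**
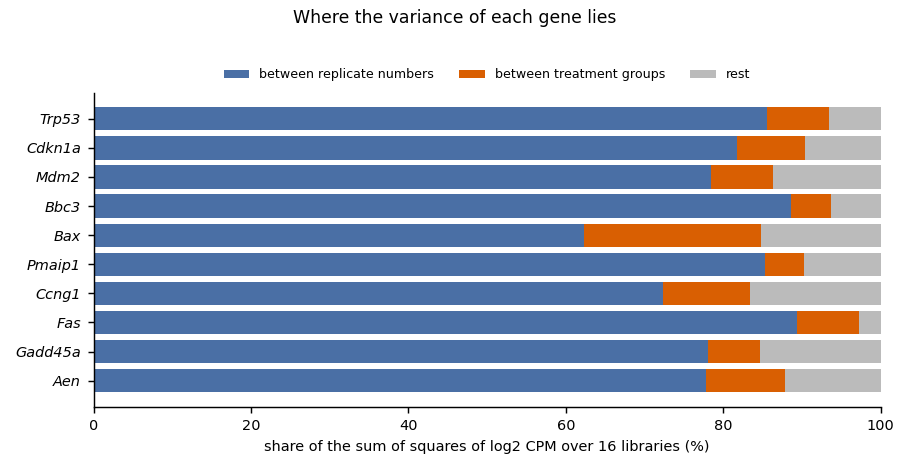
Share of the sum of squares of log2 CPM over the 16 libraries (percent, horizontal axis) that lies between replicate numbers, between treatment groups, and in the rest, for each of the 10 genes. The blue part is the longest in all 10 bars, from 62.3% for *Bax* to 89.3% for *Fas*.

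The summed markers of the endothelial and mural list and of the oligodendrocyte lineage were also higher in replicates 1 and 4 than in 2 and 3. Summed over 11 endothelial and mural markers, the level was 121 to 216 CPM in replicate 1 and 134 to 372 CPM in replicate 4, against 28.1 to 32.3 CPM in replicate 2 and 29.6 to 50.6 CPM in replicate 3. Oligodendrocyte lineage markers summed to 426 to 846 CPM in replicate 1 and 333 to 788 CPM in replicate 4, against 107 to 139 CPM in replicate 2 and 183 to 258 CPM in replicate 3. Neuron markers went the other way, with 3751 to 4440 CPM in replicate 1 and 2607 to 3991 CPM in replicate 4, against 5488 to 5911 CPM in replicate 2 and 5866 to 6571 CPM in replicate 3. Astrocyte markers were lowest in replicate 2 (1309 to 1700 CPM). Replicates 1 (2128 to 4414 CPM), 3 (2482 to 3608 CPM) and 4 (2994 to 6581 CPM) overlapped. Replicate 4 held the highest value, but with apoE2 it was below replicate 1 (2994 against 3151 CPM). Microglia markers summed to 24.7 to 44.4 CPM in replicate 4 and to 6.98 to 18.2 CPM in the others. The part of these cell types in the levels of the 10 genes was not tested, and in such bulk samples fewer cells of a type cannot be told apart from less RNA per cell. No marker of these lists was at 0 counts in all libraries, and 3 of the endothelial and mural markers were below 1 CPM in each. These were *Pecam1*, *Cldn5* and *Cdh5*, so the sum of that list rests on its other genes. Among those, *Acta2* reached 147 CPM and *Col1a2* 82.4 CPM, both in apoE3 cultures.

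**Figure D3:**
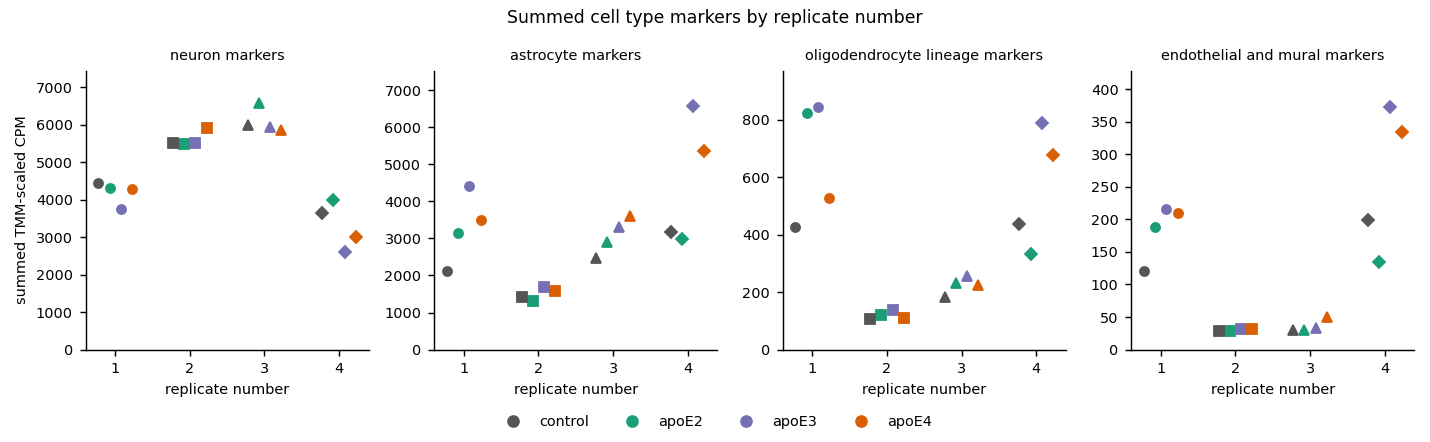
Summed TMM-scaled CPM (vertical axis) of neuron, astrocyte, oligodendrocyte lineage and endothelial and mural markers in each library, by replicate number on the horizontal axis and coloured by group. Replicates 1 and 4 are lower than replicates 2 and 3 in neuron markers and higher in oligodendrocyte lineage and endothelial and mural markers.

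Against the control, none of the 10 genes passed an adjusted p of 0.05 in any apoE group in edgeR's quasi-likelihood test without a term for the replicate number, and neither did any reach an unadjusted p under 0.05 or a call by DESeq2. Of all tested genes this fit called 0% for apoE2, 0.00587% for apoE3 and 0.194% for apoE4, and 2.79%, 6.43% and 3.30% had an unadjusted p under 0.05. With the cut-offs of the study, a change of at least 2-fold and an unadjusted p under 0.05, applied here to edgeR's p in place of the study's own test, 0 of the 10 genes passed in any apoE group, against 0.722% of tested genes for apoE2, 1.96% for apoE3 and 1.15% for apoE4. Without apoE3 replicate 2, the 2 genes *Cdkn1a* and *Ccng1* passed these cut-offs for apoE3. With apoE3 the log2 fold changes ran from -0.02 for *Bbc3* to 1.06 for *Fas*, with 9 of 10 above 0 and a median of 0.56, against 52.4% and a median of 0.02 over all tested genes. With apoE2 they ran from -0.01 for *Bbc3* to 0.56 for *Gadd45a* (median 0.30, all genes 0.01), and with apoE4 from -0.33 for *Bbc3* to 1.01 for *Fas* (median 0.23, all genes 0.00). In both, 9 of 10 were above 0, against 52.3% of tested genes for apoE2 and 50.4% for apoE4. The 3 comparisons share the control libraries. *Bax* with apoE3 had the smallest unadjusted p of the 30 values, 0.066, with an adjusted p of 0.784. Standard errors of these fold changes were 0.20 for *Bax* to 0.87 for *Fas*.

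Libraries of the same replicate number deviated from their group means together, so the replicate number was also fitted as a block. With the replicate block, 4 of the 10 genes passed an adjusted p of 0.05 for apoE3, all higher than in the control, against 11.7% of tested genes in either direction, and 8 of the 10 had an unadjusted p under 0.05, against 27.5%. These were *Fas*, with a log2 fold change of 0.96 ± 0.20 (SE, adjusted p = 0.00708), *Bax* with 0.36 ± 0.11 (adjusted p = 0.0372), *Cdkn1a* with 0.65 ± 0.20 (adjusted p = 0.0482) and *Aen* with 0.44 ± 0.14 (adjusted p = 0.0483). Hence a death receptor, a mitochondrial effector, a cell cycle inhibitor and a nuclease were the called genes. *Trp53* (0.34 ± 0.11, adjusted p = 0.0648) and *Ccng1* (0.61 ± 0.21, adjusted p = 0.0673) lay just past the threshold, and *Bbc3* stood at 0.01 ± 0.12. For apoE4 only *Fas* passed among the 10, with 0.89 ± 0.20 (adjusted p = 0.0222), against 3.30% of tested genes. For apoE2 none of the 10 passed, against 1.73% of tested genes, the smallest adjusted p being 0.186 for *Bax*. At an unadjusted p under 0.05 with the block the count was 2 of the 10 for apoE2, against 13.3% of tested genes, and 2 for apoE4, against 16.6%. DESeq2 with the same block called 6 of the 10 for apoE3, the 4 genes of edgeR with *Trp53* and *Ccng1*, against 16.5% of the genes it tested. It called 1, *Fas*, for apoE4, against 5.61%, and 0 for apoE2, against 4.61%.

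Of these calls the one of *Fas* with apoE3 was the most stable. It remained in all 16 fits that left out 1 library each, with log2 fold changes of 0.80 to 1.11 over these and the 4 fits without a whole replicate number, and was lost only without all replicate 1 libraries (adjusted p = 0.0615). *Bax* kept its call in 9 of the 16, *Cdkn1a* in 5 and *Aen* in 3, and the number of the 10 genes called ran from 1 without apoE2 replicate 3, apoE3 replicate 1, apoE3 replicate 4, control replicate 1 or control replicate 4 to 8 without apoE3 replicate 2. It was 2 without apoE2 replicate 2, apoE3 replicate 3, control replicate 3 or any 1 apoE4 library. Without all replicate 1 libraries 0 of the 10 were called, and without all those of replicate 3 or of replicate 4 it was 1. Without all replicate 2 libraries the calls of *Fas*, *Bax*, *Cdkn1a* and *Aen* remained. The call of *Fas* with apoE4 was lost without apoE4 replicate 3, apoE4 replicate 4, control replicate 1 or control replicate 4, and without any whole replicate number, at adjusted p-values of up to 0.137.

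**Figure D4:**
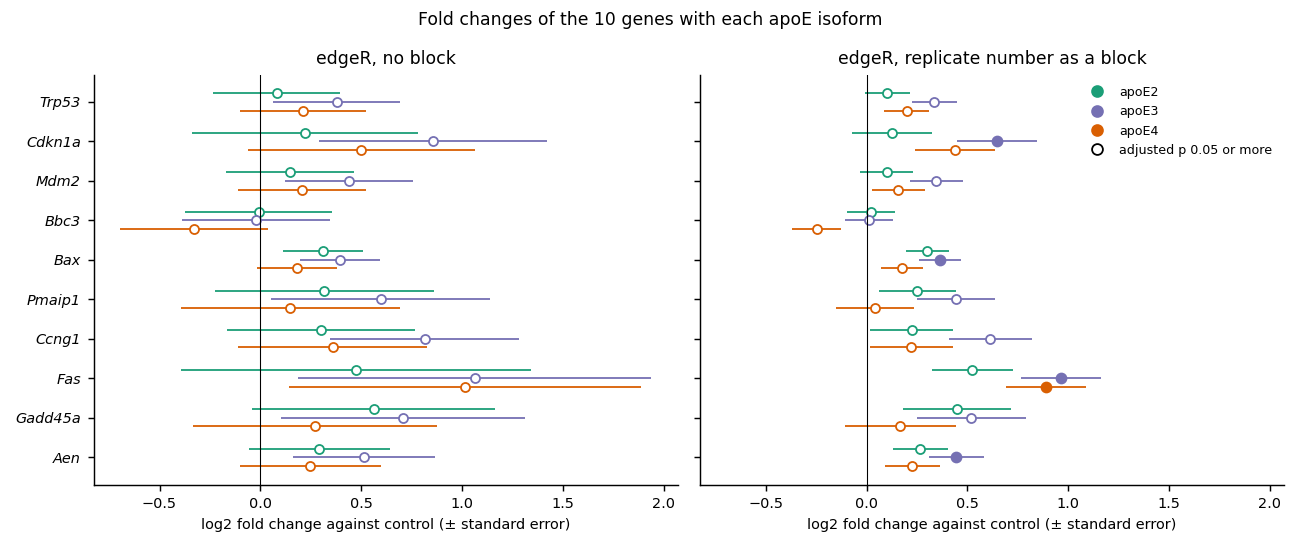
Log2 fold change against the control (horizontal axis, with its standard error as a line) of the 10 genes for apoE2, apoE3 and apoE4, from edgeR without a block on the left and with the replicate number as a block on the right. Filled points passed an adjusted p of 0.05. With the block the lines shorten, the apoE3 points of *Fas*, *Bax*, *Cdkn1a* and *Aen* and the apoE4 point of *Fas* are filled, and the *Bbc3* points stay close to 0 or left of it.

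Within pairs of the same replicate number the difference between apoE3 and control was uneven. *Cdkn1a* differed by 1.20, -0.02, 0.13 and 1.11 on the log2 scale in pairs 1 to 4, and *Ccng1* by 1.12, -0.10, 0.27 and 1.17. *Aen* differed by 0.70, 0.04, 0.32 and 0.68 and *Bax* by 0.51, 0.07, 0.21 and 0.65. Pairs 1 and 4 thus carried most of the difference of these 4 genes. *Fas* differed by 0.94, 0.95, 0.58 and 1.30, so that its difference was present in each pair. The median of the 10 genes was 0.74, 0.00, 0.21 and 0.76 in pairs 1 to 4 for apoE3. For apoE2 it was 0.71, 0.15, 0.12 and -0.06, and for apoE4 it was 0.38, 0.10, 0.08 and 0.26. The medians over all tested genes lay between -0.0032 and 0.057 in these pairs. For apoE3, the pairs in which the 10 genes differed most were also those in which the astrocyte sums differed most, at 4414 against 2128 CPM in pair 1 and 6581 against 3162 CPM in pair 4, compared with 1700 against 1412 CPM in pair 2 and 3314 against 2482 CPM in pair 3. In pair 1 the control library also differed from the apoE libraries in its make-up, with 61.8% of reads on no single gene against 71.6 to 73.7% and 5.95% of gene counts on *Lars2* against 12.2 to 15.02%. In pair 4 it was the apoE2 library that differed from the other 3, with 38.4% against 63.5 to 67.1% and 0.690% against 7.64 to 9.82%, and without it the fit with the block called 1 of the 10 genes for apoE2. In pair 2 the apoE4 library did so, with 38.6% against 52.0 to 56.0% and 0.359% against 2.83 to 4.85%. The part of the astrocyte markers and of these library properties in the differences was not tested.

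The genes higher than the control in 4 of 4 pairs were *Bax*, *Pmaip1* and *Fas* for apoE2, *Trp53*, *Bax*, *Fas* and *Aen* for apoE3, and *Cdkn1a*, *Bax*, *Fas* and *Aen* for apoE4. That is 3, 4 and 4 of the 10 genes, against 11.6%, 18.7% and 14.9% of tested genes. *Bax* and *Fas* were thus in all 3 sets, which share the control libraries.

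**Figure D5:**
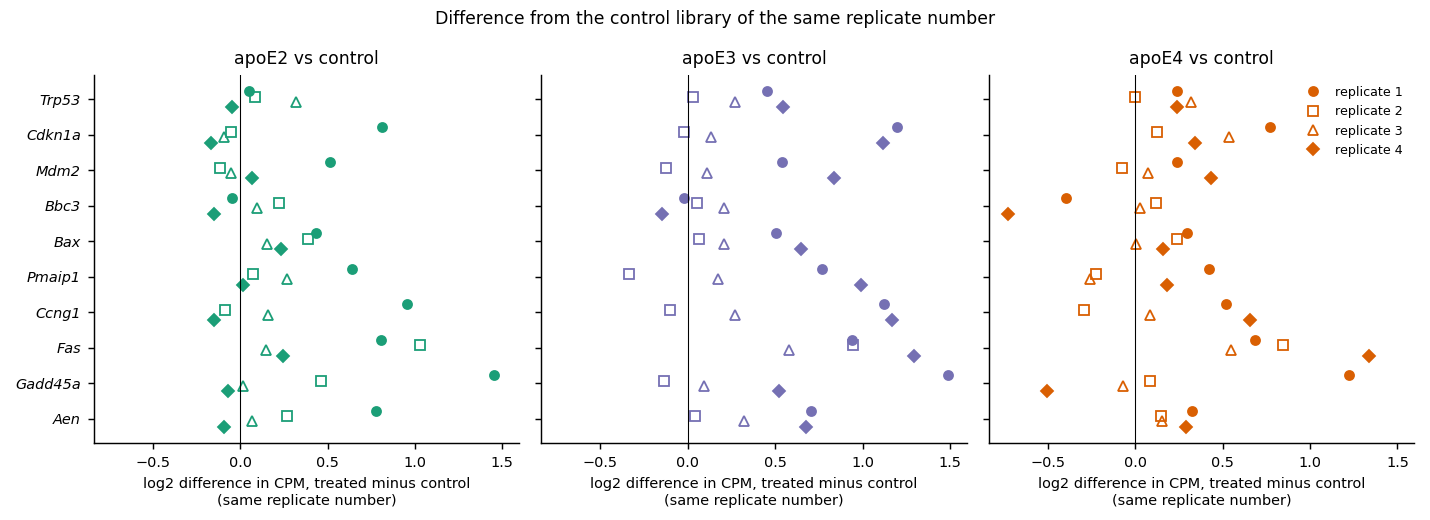
Difference in log2 CPM between each apoE library and the control library of the same replicate number (horizontal axis), for the 10 genes and the 3 isoforms. Each point is 1 pair, with filled symbols for replicates 1 and 4 and open symbols for 2 and 3. For apoE3 the filled points of *Cdkn1a*, *Ccng1* and *Aen* lie between 0.68 and 1.20 and the open ones between -0.10 and 0.32.

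Between the isoforms none of the 10 genes passed an adjusted p of 0.05, either without the block, against 0% of tested genes for apoE3 against apoE2, 0.252% for apoE4 against apoE2 and 0.147% for apoE4 against apoE3, or with it, against 1.31%, 4.44% and 1.76%. Without the block no unadjusted p lay under 0.05, against 2.28%, 5.34% and 4.70% of tested genes, DESeq2 made no call, and none passed the 2-fold cut-offs, against 0.687%, 1.30% and 1.25% of tested genes. With the block, 2, 1 and 1 of the 10 had an unadjusted p under 0.05 in these comparisons, against 15.9%, 18.0% and 16.3%. All 10 log2 fold changes of apoE4 against apoE3 lay below 0, from -0.46 for *Ccng1* to -0.05 for *Fas*, with a median of -0.29, against 53.2% below 0 and a median of -0.016 over all tested genes. *Fas* was nearly level between apoE4 and apoE3, at -0.07 ± 0.19 with the block, where *Bbc3* stood at -0.26 ± 0.12. In the same fit *Fas* stood at 0.44 ± 0.20 for apoE3 against apoE2 and at 0.37 ± 0.20 for apoE4 against apoE2. For apoE3 against apoE2, 9 of the 10 log2 fold changes lay above 0, with a median of 0.29. Over all tested genes 9072 of 17038 lay above 0 there, with a median of 0.016. Against apoE2, 5 of the 10 genes were above and 5 below 0 with apoE4, where 48.0% of tested genes were below 0. *Bax*, *Bbc3* and *Gadd45a* were lower with apoE4 than with apoE2 in 4 of 4 pairs, which is 3 of the 10 genes against 12.4% of tested genes, by fold changes that did not pass the test. By pairs the order of apoE4 and apoE3 was less even, with medians of the 10 genes of -0.32, 0.09, -0.17 and -0.50 in pairs 1 to 4, and in pair 2 the level was higher with apoE4 for 7 of the 10.

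Regulators of p53 were described from a list of 15 genes, all of which were tested. Without the block edgeR called none in any comparison with the control. The 2 unadjusted p-values under 0.05 were both of *Hipk2*, with apoE3 and with apoE4, and DESeq2 called it for apoE4. *Hipk2*, a kinase that phosphorylates p53, had a mean of 17.2 ± 8.41 CPM in the control (SD, n = 4), of 22.5 ± 6.68 in apoE2, of 33.1 ± 12.3 in apoE3 and of 72.7 ± 35.6 in apoE4 cultures. The 4 apoE4 libraries lay between 38.0 and 119 CPM and did not overlap the control, which ended at 25.3 CPM. Its log2 fold change with apoE4 was 2.08 ± 0.43 (adjusted p = 0.0900), higher in 4 of 4 pairs, and the replicate block turned this into a call (2.07 ± 0.18, adjusted p = 9.43e-06). With apoE3 the block gave 0.98 ± 0.17 (adjusted p = 0.00305), and *Hipk2* was the only regulator that edgeR called for either isoform, which is 1 of 15, against 11.7% of all tested genes for apoE3 and 3.30% for apoE4. DESeq2 with the block also called *Usp7*, a deubiquitinase of p53 and Mdm2 picked after its values were seen, lower for apoE3. *Mdm4*, the relative of Mdm2 that holds p53 inactive, was lower with apoE3 in 4 of 4 pairs, at -0.19 ± 0.09 without reaching the threshold (adjusted p = 0.770). *Trp63*, a sister of p53, stood at 0.936 CPM in the control and 1.67 CPM with apoE2 (log2 fold change 0.85 ± 0.45, adjusted p = 1). *Chek1*, the checkpoint kinase, stood at 1.45 CPM in the control and 1.95 CPM with apoE2, and *Kat5*, an acetyltransferase of p53, at 37.2 CPM in the control and 33.4 CPM with apoE4.

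A list of 9 further genes of arrest and feedback holds p53 targets and also relatives of *Ccng1* and *Gadd45a*. Without the block edgeR called none of them, and DESeq2 called *Ccng2* for apoE3. Unadjusted p-values under 0.05 in edgeR numbered 1, 3 and 2 for apoE2, apoE3 and apoE4, against 2.79%, 6.43% and 3.30% of tested genes. With the block edgeR called 4 for apoE3, 3 higher and 1 lower, and 0 for apoE2 and for apoE4, while DESeq2 called *Btg2*, picked after its values were seen, lower for apoE2. Of all tested genes edgeR with the block called 11.7% for apoE3, 1.73% for apoE2 and 3.30% for apoE4. *Ccng2*, the relative of *Ccng1*, fell in that fit, with a log2 fold change of -0.41 ± 0.08 (adjusted p = 0.00683), where *Ccng1* stood at 0.61. Its 4 control libraries held 65.5 to 73.3 CPM and its apoE3 libraries 47.9 to 59.2 CPM, with no overlap, and it was lower in 4 of 4 pairs with each isoform. *Plk2*, a kinase induced by neuronal activity, was higher with apoE3, where it stood at 0.41 ± 0.12 (adjusted p = 0.0381) and was higher in 3 of 4 pairs. With apoE2 it was higher in 4 of 4 pairs, at 0.30 ± 0.12 with the block (adjusted p = 0.278). The other 2 calls, *Gadd45g* (0.48, adjusted p = 0.00843) and *Gtse1* (0.77, adjusted p = 0.0389), fall outside the rule for naming genes and were picked after their values were seen. *Sfn*, which encodes 14-3-3 sigma, was below 1 CPM in all libraries, and its fold changes with apoE3 (0.86 ± 0.40) and apoE4 (0.88 ± 0.39) rest on few counts.

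Among 12 further targets of cell death, edgeR called none without the block, whereas DESeq2 called *Zmat3* for apoE4, which also held the only unadjusted p under 0.05. *Zmat3*, a p53-induced RNA-binding protein, averaged 74.9 ± 13.3 CPM in the control, 88.9 ± 37.4 in apoE2, 89.2 ± 14.9 in apoE3 and 179 ± 42.1 in apoE4 cultures. The apoE4 libraries (131 to 229 CPM) did not overlap those of the control (55.3 to 84.1 CPM). The log2 fold change with apoE4 was 1.26 ± 0.25 (adjusted p = 0.0826), and with the block the adjusted p was 5.71e-04. *Zmat3* was the only gene of the list called for apoE4 with the block, while for apoE3 it stood at 0.26 ± 0.16 in that fit. For apoE3 edgeR with the block called 4 other genes, all higher, against 11.7% of tested genes, namely the death receptor *Tnfrsf10b* (0.95 ± 0.20, adjusted p = 0.00736), *Ei24* (0.25 ± 0.08, adjusted p = 0.0490) and, picked after their values were seen, *Perp* (1.082, adjusted p = 0.0165) and *Eda2r* (0.76, adjusted p = 0.0194). *Bid* and *Triap1* were the other genes named by the rule, at -0.14 ± 0.16 with apoE2 and -0.25 ± 0.12 with apoE4. The list's median log2 fold changes without the block were 0.20, 0.56 and 0.37 for apoE2, apoE3 and apoE4.

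Of targets of metabolism and repair, edgeR called none of 10 in any comparison with the control, with or without the block, DESeq2 called 1 (*Sesn1*, with apoE2 and the block, where it called 4.61% of all genes), and their median log2 fold changes were -0.01, -0.06 and -0.09 for apoE2, apoE3 and apoE4. At an unadjusted p under 0.05 without the block the count was also 0. With the block edgeR called 1.73%, 11.7% and 3.30% of all tested genes in these comparisons. *Sesn1*, a stress-induced sestrin, came nearest, at 26.9 CPM in the control and 19.1 CPM with apoE2 (log2 fold change -0.49 ± 0.24, adjusted p = 1, with the block 0.0965), lower in 4 of 4 pairs. *Ddb2*, of nucleotide excision repair, was lower in 4 of 4 pairs with apoE2 (-0.36 ± 0.23) and with apoE4 (-0.38 ± 0.24) on the log2 scale. *Gls2* stood at -0.49 ± 0.31 with apoE3 and *Ddit4* at -0.17 ± 0.16 with apoE4.

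The machinery that senses and repairs DNA breaks was tested in 23 genes. Neither edgeR nor DESeq2 called any of them against the control, with or without the block, and no unadjusted p was under 0.05 without it. Of all tested genes edgeR with the block called 1.73%, 11.7% and 3.30% for apoE2, apoE3 and apoE4, and DESeq2 with the block 4.61%, 16.5% and 5.61%. Their median log2 fold changes were 0.06, 0.07 and 0.03. The genes named by the rule were *Ercc1* (0.33 ± 0.18 with apoE3), *Clspn* (0.65 ± 0.41 with apoE3), *Xrcc4* (0.20 ± 0.13 with apoE2), *Mdc1* (0.60 ± 0.37 with apoE4) and *Brca2* (0.32 ± 0.19 with apoE4).

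Of 18 other Bcl2 family and caspase genes, 17 were tested and neither tool called any without the block, with 1 unadjusted p under 0.05 (*Bmf*) each for apoE3 and apoE4. With the block edgeR called 8 for apoE3, 6 higher and 2 lower, *Bmf* alone for apoE4 and *Bok* alone for apoE2, against 11.7%, 3.30% and 1.73% of all tested genes. DESeq2 with the block called 10 for apoE3, 8 higher and 2 lower, *Bmf* and *Hrk* for apoE4 and *Bok* for apoE2. Of all the genes it tested, it called 16.5% for apoE3, 5.61% for apoE4 and 4.61% for apoE2. *Bmf*, a BH3-only killer, stood at 1.05 CPM in the control, 4.76 CPM with apoE3 and 4.08 CPM with apoE4, and the block gave 2.08 ± 0.38 (adjusted p = 0.00365) and 2.15 ± 0.38 (adjusted p = 0.00525). *Bak1*, the partner of *Bax*, stood at 0.50 ± 0.13 with apoE3 (adjusted p = 0.0198) and *Casp8*, the caspase recruited by Fas, at 1.38 ± 0.29 (adjusted p = 0.00805). *Bok*, a Bax relative, was lower in 4 of 4 pairs with apoE2 and with apoE3, and with the block it fell by 1.11 (adjusted p = 7.74e-04) and 0.90 (adjusted p = 3.60e-04) on the log2 scale, while with apoE4 it stood at -0.10 ± 0.11. The BH3-only genes did not all go one way, since *Hrk*, picked after its values were seen, fell by 0.79 (adjusted p = 0.00920) with apoE3. *Casp9* was the other gene named by the rule, at 0.32 ± 0.21 with apoE4.

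With the block, marker lists of other cell types had calls in the same comparisons. In edgeR, for apoE3, 7 of 8 astrocyte markers, 3 of 8 oligodendrocyte lineage markers and 3 of 9 endothelial and mural markers were called higher, and among 8 neuron markers 1 was called higher and 2 lower. For apoE4 edgeR's counts were 3, 1 and 2 with 0 neuron markers, and for apoE2 they were 0 in each. DESeq2 with the block called 7, 4 and 3 higher for apoE3, with 1 neuron marker higher and 3 lower. It called 5, 1 and 3 higher for apoE4, and for apoE2 1 astrocyte marker higher, 1 lower and 1 neuron marker lower. Neither tool called a microglia marker. The shares over all tested genes were 11.7%, 3.30% and 1.73% for apoE3, apoE4 and apoE2 in edgeR with the block. In DESeq2 with the block they were 16.5%, 5.61% and 4.61%. The part of these cell types in the fold changes of the p53 genes was not tested.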

How the data were processed

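RNA sequencing counts of 16 libraries in 4 groups were analysed, with groups and replicate numbers taken from the sample labels. Per the study's methods, 4 independent cultures per group were sequenced after ribosomal RNA depletion, and the authors aligned reads to mm10 with STAR and counted them per gene with HTSeq. The deposited values are raw counts, with no normalization. The annotation release and the strand setting are not given in the sources used here. HTSeq's 5 summary rows (38.4 to 73.7% of a library) entered neither library sizes nor tests. The columns of each table hold a gene symbol and a count, with no comparisons of the authors.

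Counts were fitted with edgeR 4.0.16 in R 4.3.3, by the quasi-likelihood test with TMM scaling, filterByExpr (minimum count 10, minimum total 15, minimum proportion 0.7) and 1 coefficient per group over all 16 libraries. P-values were adjusted by Benjamini-Hochberg over the 17038 genes of each comparison, and a gene was called at an adjusted p under 0.05. The standard error is the log2 fold change divided by the square root of F. Log2 CPM for variance shares used a prior count of 2. The script was tested on simulated data.

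Replicate numbers come from the sample titles. After subtraction of group means, libraries of the same number correlated at 0.362 to 0.831 across genes and those of different numbers at -0.830 to 0.569, so the numbers were taken to pair the libraries, and the fit with the number as a block stands beside the main one. The common dispersion was 0.132 without and 0.0178 with the block.

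Positions and exon lengths are from GENCODE M21 and promoters from RefSeq. DESeq2 1.42.0, its size factors, other filters, fits of 2 groups only, fits without features over 1% of a library, the block and leave-outs were run as alternatives. Named in the text are the 10 genes and, from each wider list of the pathway, genes called without the block and the 2 with the smallest p in each comparison with the control. The 10 genes, the lists and the rule were chosen with earlier results of these data known. Within a group, any 2 libraries differed by more than sampling noise (chi-square per degree of freedom of at least 37.6). The number of counts limits precision for *Fas* and *Gadd45a* most.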

Additional observations from a re-analysis of the deposited data

How the results depend on the processing

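Without the replicate block, 0 of the 10 genes were called in all 6 comparisons under each alternative (DESeq2, its size factors, no filter or a stricter one, 2 groups only, without features over 1% of a library, and without each library). The cause of the changes below was not tested unless fewer libraries made them. Fitting the replicate number as a block called 4 genes for apoE3 and 1 for apoE4, and DESeq2 with the replicate block called 6 and 1. The block changed no other count of calls. Without 1 library, the count by the 2-fold cut-offs for apoE3 ranged from 0 to 2, the 2 being reached without apoE3 replicate 2. Leave-outs in the fit with the block, added after the data were seen, gave 0 to 1 calls for apoE2, 0 to 8 for apoE3 and 0 to 1 for apoE4, and the 1 for apoE2 was reached without apoE2 replicate 4. The log2 fold change changed sign in 59 alternatives spread over 26 of the 60 values, none of them called. The replicate block did so for *Bbc3* with apoE2 (0.022) and apoE3 (0.013) and for *Ccng1* in apoE4 against apoE2 (-0.0025), and DESeq2 with the block for *Bbc3* with apoE2 (0.0083). The others changed sign when 1 library was left out, over the ranges given here. For apoE2 against control these were *Trp53* (-0.039 to 0.23), *Cdkn1a* (-0.22 to 0.46), *Mdm2* (-0.063 to 0.28), *Bbc3* (-0.23 to 0.26), *Pmaip1* (-0.14 to 0.55) and *Ccng1* (-0.085 to 0.47). For apoE3 against control these were *Bbc3* (-0.25 to 0.24). For apoE4 against control these were *Pmaip1* (-0.28 to 0.39) and *Gadd45a* (-0.26 to 0.64). For apoE3 against apoE2 these were *Bbc3* (-0.22 to 0.17), *Bax* (-0.055 to 0.23), *Pmaip1* (-0.073 to 0.74), *Fas* (-0.089 to 0.95), *Gadd45a* (-0.24 to 0.61) and *Aen* (-0.039 to 0.51). For apoE4 against apoE2 these were *Trp53* (-0.025 to 0.29), *Mdm2* (-0.14 to 0.27), *Pmaip1* (-0.60 to 0.29), *Ccng1* (-0.27 to 0.45), *Fas* (-0.26 to 0.90), *Gadd45a* (-0.82 to 0.17) and *Aen* (-0.24 to 0.24). For apoE4 against apoE3 these were *Trp53* (-0.35 to 0.053), *Cdkn1a* (-0.67 to 0.0040), *Mdm2* (-0.44 to 0.057) and *Fas* (-0.85 to 0.63). Depth limits *Fas* and *Gadd45a*, with as few as 18 and 30 counts in a library.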

Other observations

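Of 12 proliferation markers, edgeR called none against the control without the block, while DESeq2 called *Top2a* for apoE2 and apoE3, the only 2 with an unadjusted p under 0.05. *Top2a*, which encodes the topoisomerase II of dividing cells and was picked after its values were seen, like *Ccnb1* and *Bub1*, averaged 4.16 ± 2.43 CPM in the control (SD, n = 4), 14.7 ± 5.24 in apoE2, 23.5 ± 9.12 in apoE3 and 6.64 ± 2.65 in apoE4 cultures. Its apoE3 libraries (15.8 to 35.01 CPM) did not overlap those of the control (2.18 to 7.44 CPM). In edgeR's quasi-likelihood test the log2 fold change was 2.498 ± 0.43 with apoE3 (adjusted p = 0.202, with the replicate block 5.59e-04) and 1.83 ± 0.42 with apoE2 (adjusted p = 0.651, with the block 0.0140), and it was higher in 4 of 4 pairs with both. No other marker of the list was called for apoE2, apoE3 or apoE4 by either tool, with or without the block. The log2 fold change was above 0 for 10, 11 and 12 of the 12 markers with apoE2, apoE3 and apoE4, with medians of 0.27, 0.48 and 0.68, against 52.3%, 52.4% and 50.4% of all tested genes and medians of 0.01, 0.02 and 0.00. *Ccnb1*, of mitosis, averaged 0.545 CPM in the control and 0.756, 0.886 and 0.958 CPM with apoE2, apoE3 and apoE4, and *Bub1* 0.323 CPM and 0.504, 0.630 and 0.849 CPM. Both genes rest on few counts in each library. The apoE4 libraries of *Bub1* ranged from 0.228 to 2.29 CPM with a median of 0.440 CPM. Other markers had means below the control. With apoE2 these were *Mki67* (5.14 against 5.24 CPM) and *Tyms* (2.37 against 2.57 CPM), and with apoE3 *Mcm5* (3.91 against 4.60 CPM).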
